A study of Macaca mulatta with 18 samples.

Results

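The GABA-A receptor subunit genes GABRA2, GABRA3, GABRA4, GABRA5 and GABRB1 and the chloride cotransporter genes SLC12A2 and SLC12A5 were followed in fetal brain of wild-type rhesus macaque. These 7 genes were taken by name from an RNA-seq table of 22345 genes, 14700 of which could be paired with a symbol. Each name matched 1 Ensembl gene. The samples came from embryonic day 84 and from 2 tissues that the labels call GZ and CP without spelling them out. In work on fetal cortex these letters usually stand for the germinal zone, where progenitors divide, and the cortical plate, where neurons settle. The RNA-seq comparison had 3 GZ libraries and 3 CP libraries. No treatment, transgene or mutation is named in the labels, and separate animals or pooling of tissue are not stated there. Hi-C, DNase-seq and CTCF ChIP-seq samples of the same tissues were not analysed here.

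GABA-A receptors are chloride channels built from a ring of subunits around a pore, opened by the transmitter GABA. The alpha subunit shapes how sensitive the receptor is to GABA and to benzodiazepines, the beta subunit completes the GABA site, and a gamma subunit helps to anchor many receptors at synapses. What an open channel does depends on chloride inside the cell. NKCC1, encoded by SLC12A2, brings chloride in with sodium and potassium. KCC2, encoded by SLC12A5, carries chloride out with potassium and is largely restricted to neurons. In rodents SLC12A5 expression increases as cortical neurons mature, and GABA changes from depolarizing to hyperpolarizing over that time.

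Values are log2 of FPKM (fragments per kilobase of transcript, scaled to sequencing depth) that the authors had normalized with cqn, a method that adjusts for transcript length and GC content. Differences are GZ minus CP, so a negative value means lower in GZ. A gene is said to have risen or fallen in GZ when its adjusted p in limma, corrected over the 13460 genes tested, was under 0.05. Library medians lay between 1.82 and 1.87, and read depth is unknown because the values carry no read totals. Library profiles correlated at 0.971 to 0.987 within a tissue and at 0.895 to 0.935 between tissues. The libraries numbered 1 went apart in Y-linked genes: RPS4Y1 was -0.23, 5.69 and -1.67 in GZ libraries 1, 2 and 3, and 4.45, 6.06 and -1.43 in CP libraries 1, 2 and 3. GZ library 1 was therefore low where CP library 1 was high, while the tissues of numbers 2 and 3 were alike. The libraries numbered 1 may thus not come from the same animal, and RPS4Y1 was high in 1 of 3 GZ libraries and in 2 of 3 CP libraries. Results that changed without both libraries numbered 1 are given with and without them. That setting keeps 2 libraries per tissue, and far fewer genes were called in it over all genes tested. A call lost there need not mean a smaller difference. Both tissues carry the same 3 numbered names in the sample titles, but the labels do not say that a number marks an animal. The spread behind each p-value may thus be partly technical.

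All 7 genes fell in GZ. Over all genes tested 45.4% were called, 20.9% as lower in GZ and 24.5% as higher, so a fall alone is common, and the median difference of the 7 genes was -1.12 against 0.05 over all genes tested. GABRA2, GABRA3, GABRA4 and GABRA5 fell by at least 1 on the log2 scale, which 7.04% of tested genes did. Of these, GABRA4 averaged -0.49 in GZ and 0.89 in CP, so it entered the test through CP, where it was higher. The lowest CP library lay above the highest GZ library for each of the 7, as for 25.5% of genes tested, while the reverse held for 30.9%. In bulk tissue, fewer cells that express a gene and less RNA per cell cannot be told apart.

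**Figure D1:**
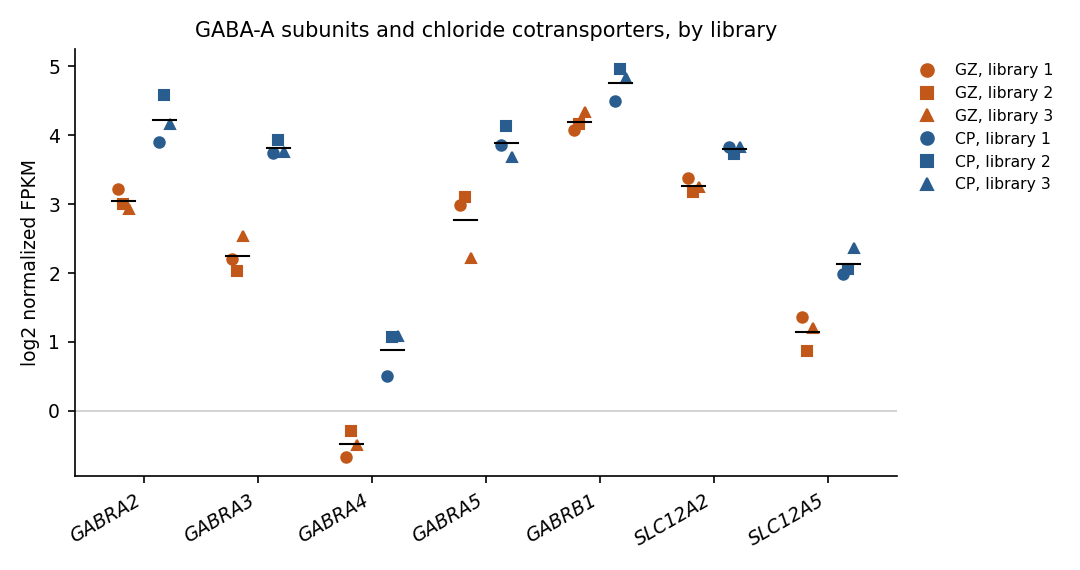
Level of each of the 7 genes (log2 normalized FPKM, vertical axis) in every library, GZ in orange left of CP in blue, with symbols for library numbers and black bars for means of 3 libraries. Each gene's GZ points lie below its CP points, with the widest separation for GABRA3 (means 2.25 in GZ and 3.81 in CP) and the narrowest gap for GABRB1.

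GABRA3 encodes an alpha subunit typical of immature forebrain and is X-linked. Its log2 level was 2.20, 2.03 and 2.53 in GZ libraries 1, 2 and 3, and 3.74, 3.93 and 3.76 in CP libraries 1, 2 and 3. The CP libraries lay close together and the highest GZ library, number 3, stayed 1.21 below the lowest of them. GABRA3 was 2.94-fold lower in GZ (log2 difference -1.56 ± 0.16 SE, 95% interval -1.92 to -1.19, limma adjusted p = 2.98e-04). Without both libraries numbered 1, which differ in Y-linked genes, it was still called (-1.56, limma adjusted p = 0.0086).

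GABRA2 encodes the alpha subunit that in adult cortex is enriched at inhibitory synapses on the axon initial segment. It stood at 3.23, 3.00 and 2.92 in the GZ libraries and at 3.90, 4.59 and 4.17 in the CP libraries, in the order of their numbers. The spread was wider in CP, where library 1 was lowest, and the tissues did not overlap. The log2 difference was -1.17 ± 0.18 SE, a 2.25-fold lower level in GZ (limma adjusted p = 0.0018).

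GABRA5 encodes an alpha subunit best known for receptors outside synapses that carry tonic currents. Its level was 2.98, 3.10 and 2.23 in GZ, against 3.85, 4.14 and 3.69 in CP. GZ library 3 was lower than the other GZ libraries, and the tissues did not overlap. The log2 difference was -1.12 ± 0.24 SE, 2.18-fold lower in GZ (limma adjusted p = 0.0066).

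GABRA4 encodes an alpha subunit that in mature brain joins delta subunits in receptors outside synapses. It was the lowest of the 7 genes in both tissues, at -0.67, -0.30 and -0.50 in GZ and 0.51, 1.07 and 1.08 in CP. All GZ values lay below 1 FPKM, which is 0 on this scale, and CP library 1 was lower than the other CP libraries. The log2 difference was -1.38 ± 0.26 SE, 2.60-fold lower in GZ (limma adjusted p = 0.0040). With a pseudocount of 1, which damps low values, the difference was -0.74.

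GABRB1, a beta subunit gene, was the highest of the 7 in both tissues. It reached 4.08, 4.16 and 4.33 in GZ and 4.50, 4.97 and 4.83 in CP. The gap between the highest GZ and the lowest CP library was 0.16, the narrowest of the 7 genes. GABRB1 fell by 0.57 ± 0.14 SE in GZ, a 1.49-fold lower level (95% interval of the log2 difference -0.89 to -0.26, limma adjusted p = 0.011). This interval does not meet that of GABRA3, although the difference between the genes' changes was not tested.

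The cotransporters had unlike levels but both were lower in GZ. SLC12A2, which loads cells with chloride, was at 3.38, 3.18 and 3.25 in GZ libraries 1, 2 and 3 and at 3.82, 3.73 and 3.83 in the CP libraries. It varied little within a tissue, and the tissues did not overlap. The log2 difference of SLC12A2 was -0.53 ± 0.11 SE, 1.44-fold lower in GZ (limma adjusted p = 0.0055). Without both libraries numbered 1 its difference was -0.57 and the call was lost (limma adjusted p = 0.051).

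SLC12A5, which extrudes chloride, was at 1.37, 0.86 and 1.20 in GZ and at 1.98, 2.06 and 2.36 in CP. GZ library 2 was the lowest and CP library 3 the highest, with no overlap between tissues. SLC12A5 fell by 0.99 ± 0.20 SE in GZ, which is 1.99-fold lower (limma adjusted p = 0.0055). On the per-length scale its geometric mean was 2.21 FPKM in GZ and 4.39 FPKM in CP, against 9.64 FPKM in GZ and 13.9 FPKM in CP for SLC12A2.

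SLC12A5 was below SLC12A2 in every library of both tissues. Within a library, the log2 level of SLC12A5 minus that of SLC12A2 was -2.01, -2.31 and -2.05 in GZ and -1.84, -1.67 and -1.48 in CP. The GZ differences were all more negative than the CP differences. The mean was -2.12 ± 0.17 in GZ and -1.66 ± 0.18 in CP (SD, n = 3 each), so SLC12A2 exceeded SLC12A5 4.36-fold in GZ and 3.16-fold in CP. Levels compared between genes, here and below, also depend on the gene models, which were not given in the sources used. The tissues differed by -0.46 on the log2 scale (two-sided exact permutation test, p = 0.10, the smallest that 3 against 3 libraries allow, or 0.70 after Benjamini-Hochberg adjustment over the 7 single values tested). The exact test could therefore not pass 0.05 for the balance of the cotransporters. With a pseudocount of 1 the difference was -0.26, and without both libraries numbered 1 it was -0.61.

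**Figure D2:**
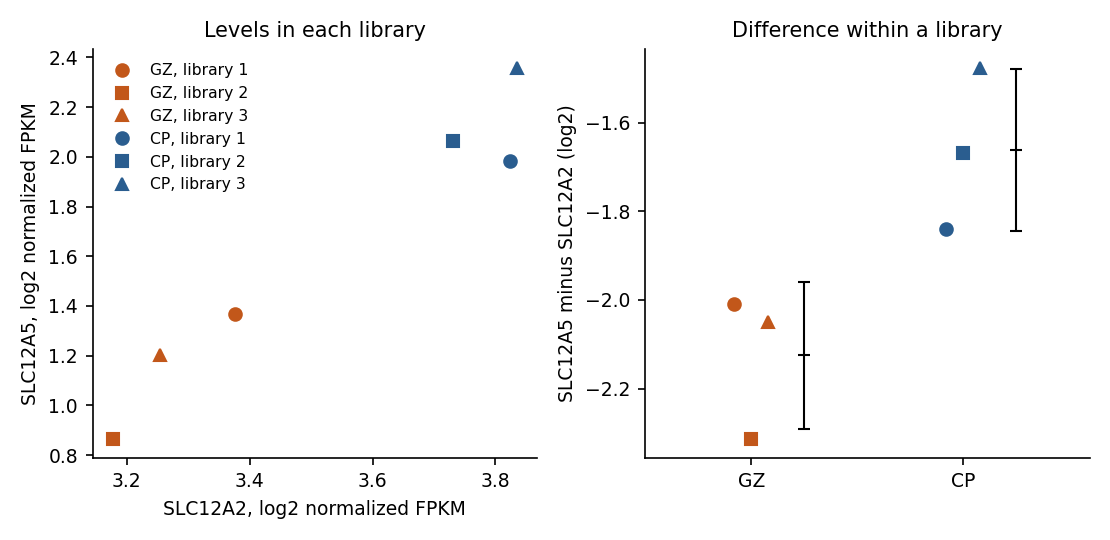
The left panel plots SLC12A5 against SLC12A2 in each library (both log2 normalized FPKM), and the right panel the SLC12A5 level minus the SLC12A2 level within each library, with bars for the mean and SD of 3 libraries. GZ libraries sit low on both axes, and their differences (-2.31 to -2.01) lie below those of CP (-1.84 to -1.48).

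On the per-length scale the order of the genes in GZ was GABRB1, SLC12A2, GABRA2, GABRA5, GABRA3, SLC12A5 and GABRA4. In GZ, GABRB1 stood clear of SLC12A2 (0.92 ± 0.20 higher within a library, SD, n = 3). The libraries of SLC12A2 and GABRA2, of GABRA2 and GABRA5, and of GABRA5 and GABRA3 overlapped. The steps down to SLC12A5 (1.11 ± 0.25) and to GABRA4 (1.63 ± 0.44) did not overlap. In CP the order was GABRB1, GABRA2, GABRA5, GABRA3, SLC12A2, SLC12A5 and GABRA4. There the first 5 genes formed a series of overlapping neighbours, and SLC12A5 lay 1.66 ± 0.18 below SLC12A2 and 1.25 ± 0.24 above GABRA4. Among all genes in the table GABRB1 averaged percentile 73.6 in GZ and 81.2 in CP, and SLC12A5 percentile 45.8 in GZ and 52.0 in CP.

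The make-up of the alpha subunits was compared as the share of each gene in the summed FPKM of all 6 alpha-subunit genes. The sum itself was 24.6, 23.3 and 21.3 FPKM in GZ libraries 1, 2 and 3 and 49.7, 63.6 and 52.2 FPKM in the CP libraries. The alpha total was thus lower in every GZ library than in any CP library. GABRA2 took the largest mean share in both tissues, 36.1% ± 1.90 in GZ and 34.1% ± 3.89 in CP (SD, n = 3 each). GABRA5 followed with 30.3% ± 7.52 in GZ and 27.1% ± 2.21 in CP, and GABRA3 had 21.1% ± 5.31 in GZ and 25.6% ± 1.49 in CP.

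No share of GABRA2, GABRA3, GABRA4 or GABRA5 separated the tissues. For GABRA3 the share was 18.7%, 17.5% and 27.2% in GZ and 26.9%, 24.0% and 25.9% in CP. GZ library 3 lay above all CP libraries while the other GZ libraries lay below them. For GABRA5 it was 32.2%, 36.7% and 22.0% in GZ and 29.1%, 27.7% and 24.7% in CP, so GZ library 3 was lowest of all. Two-sided exact permutation tests gave p = 0.40 for GABRA3, 0.50 for GABRA2 and GABRA5, 0.60 for GABRA4 and 0.20 for GABRA6, with 3 libraries per tissue, and 0.70 for each after adjustment over the 7 single values. These p-values do not show that the make-up is alike.

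**Figure D3:**
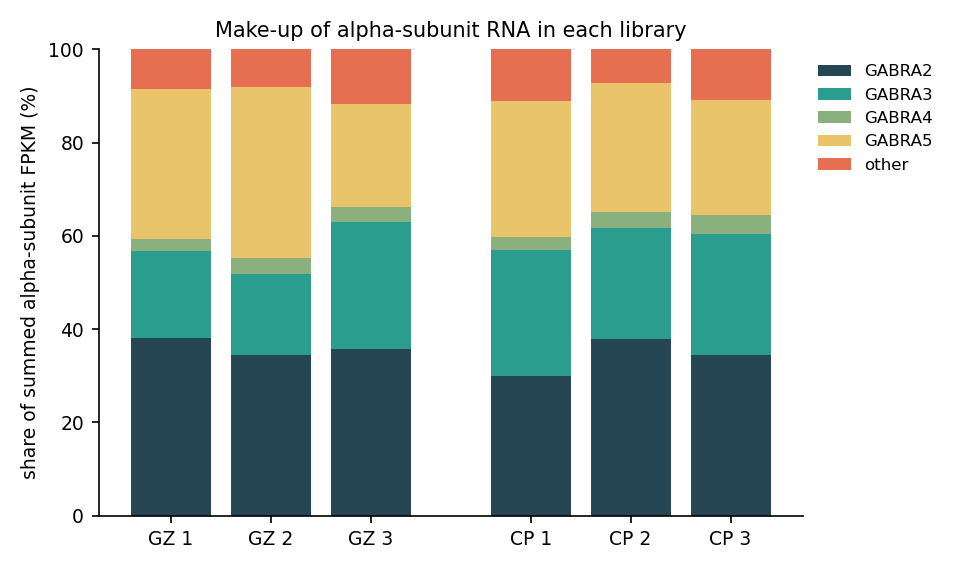
Stacked bars give the shares (%) of GABRA2, GABRA3, GABRA4 and GABRA5 in the summed alpha-subunit FPKM, 1 bar per library, with GZ libraries left of CP libraries and the remaining alpha-subunit genes summed as other. GABRA2, GABRA5 and GABRA3 fill most of every bar, and GZ library 3 has the smallest GABRA5 share (22.0%).

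Most other GABA-A subunit genes that were tested were also lower in GZ. Of 14 further subunit genes 12 were in the table under their symbol, and 6 had a mean level of at least 0 and were tested. The genes not matched by symbol are not analysed here. Of the 6 tested genes 5 fell in GZ and none rose, with a median difference of -1.07, beside 20.9% called lower over all genes tested. GABRG1, a gamma subunit gene, fell by 1.34 ± 0.19 SE (0.31 ± 0.12 in GZ, 1.65 ± 0.16 in CP, SD). GABRE, an epsilon subunit gene, fell by 1.05 ± 0.22 SE, and GABRB2 by 0.95 ± 0.21 SE. GABRE averaged -0.21 in GZ and 0.84 in CP, so it entered the test through CP. With a pseudocount of 1 the difference was -0.89 for GABRG1 and -0.58 for GABRE. GABRG3 did not pass (-0.58 ± 0.33 SE, limma adjusted p = 0.18), but did without CP library 1 (-0.96, limma adjusted p = 0.016). Without both libraries numbered 1, 3 of the 6 fell in GZ, with GABRE and GABRB2 lost (limma adjusted p = 0.057 and 0.083).

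The untested subunit genes GABRA6, GABRD, GABRP, GABRR1, GABRR2 and GABRR3 had mean levels below 0 in both tissues. GABRD, the delta subunit gene, was at -0.30 ± 0.18 in GZ and -0.76 ± 0.17 in CP (SD, n = 3 each). Every GZ library of GABRD lay above every CP library, opposite in direction to the subunit genes that fell. GABRA6, GABRP, GABRR1 and GABRR3 also had higher means in GZ and GABRR2 a lower one, with the tissues overlapping. With no filter on low values no gene of this list was called higher in GZ. GABRA4 was just inside the threshold with means of -0.49 in GZ and 0.89 in CP. A gene at the level of GABRA4 enters the test through its higher tissue.

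GABA-A subunit genes lie in clusters, and the reference gene order of assembly T2T-MMU8v2.0 was used for neighbours only. GABRG1, GABRA2, GABRA4 and GABRB1 follow each other there, with COX7B2 between GABRA2 and GABRA4. Their differences were -1.34, -1.17, -1.38 and -0.57, so GABRB1 at the end of the cluster had the smallest. GABRA5 lies next to GABRG3; GABRA5 fell by 1.12 while GABRG3 gave -0.58 and did not pass. GABRA3 lies between GABRE and GABRQ, and GABRA3 and GABRE fell by 1.56 and 1.05.

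Among the other genes of the SLC12 family, those that passed were higher in GZ. Of 7, 5 were tested, 3 rose in GZ and none fell, with a median difference of 0.66. A rise was called for 24.5% of all genes tested. SLC12A4, which encodes the broadly expressed potassium-chloride cotransporter KCC1, was at 4.13, 4.26 and 4.23 in GZ and at 3.77, 3.28 and 3.56 in CP. Every GZ library lay above every CP library, and the log2 difference was 0.68 ± 0.14 SE (limma adjusted p = 0.0054).

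SLC12A8 rose by 1.23 ± 0.36 SE at a low level (0.78 ± 0.60 in GZ, -0.45 ± 0.37 in CP, SD), so it entered the test through GZ. Its difference was 0.66 with a pseudocount of 1, and with the filter at a mean of 1 it was not tested and 2 genes of the list rose. SLC12A8 was not called without GZ library 2, CP library 1 or CP library 3 (limma adjusted p = 0.077, 0.072 and 0.066), nor without both libraries numbered 1 (0.069). SLC12A7, which encodes KCC4, did not pass (0.54 ± 0.22 SE, limma adjusted p = 0.085) but did without CP library 2 (0.78, limma adjusted p = 0.012). SLC12A9 gave 0.22 ± 0.14 SE and did not pass. The number that rose in GZ was 1 of 5 without both libraries numbered 1, where fewer genes were called over all genes tested. SLC12A1 and SLC12A3, known from kidney, had mean levels below 0 in both tissues. In CP the level of SLC12A5 (2.13 ± 0.20) stayed below that of SLC12A4 (3.53 ± 0.24, SD, n = 3 each).

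**Figure D4:**
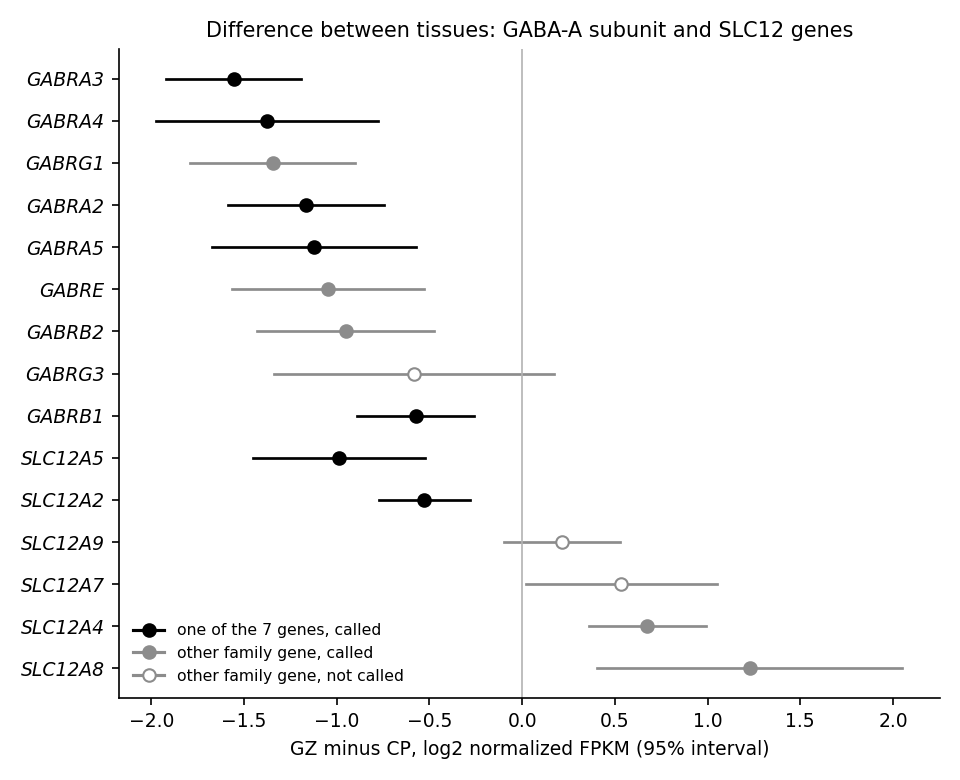
Difference GZ minus CP (log2 normalized FPKM, horizontal axis) with its 95% interval from limma for the 7 genes, in black, and the other tested GABA-A subunit and SLC12 genes that the text describes, in grey, open symbols for genes not called. GABA-A subunits, SLC12A5 and SLC12A2 lie left of 0, from GABRA3 at -1.56 to SLC12A2 at -0.53, and the other SLC12 genes lie right of it.

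Of the genes of the WNK kinase pathway, STK39, WNK1 and WNK2 were called higher in GZ. OXSR1, WNK3, CAB39 and CAB39L were tested and not called. Over all genes tested 24.5% were called higher in GZ. WNK kinases and their partners SPAK and OSR1 phosphorylate both proteins, which activates NKCC1 and inhibits KCC2. STK39, the SPAK gene, was at 5.11, 5.09 and 4.74 in GZ and at 4.16, 4.15 and 4.35 in CP, a rise of 0.76 ± 0.12 SE (limma adjusted p = 0.0020). WNK1 and WNK2 rose by 0.46 ± 0.07 and 0.48 ± 0.10 SE. OXSR1, the OSR1 gene, gave 0.34 ± 0.14 SE and did not pass (limma adjusted p = 0.076), and WNK3 gave 0.08 ± 0.19 SE. CAB39 and CAB39L, listed with these genes, gave -0.17 ± 0.07 and 0.20 ± 0.10 SE, and neither passed (limma adjusted p = 0.082 and 0.15). WNK4 was just under the threshold for testing, at 0.54 ± 0.22 in GZ and -0.64 ± 0.10 in CP (SD).

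Among the other regulators some fell strongly in GZ. PRKCB, a protein kinase C gene, fell by 2.69 ± 0.18 SE (4.55 ± 0.41 in GZ, 7.24 ± 0.09 in CP, SD, limma adjusted p = 6.68e-05). EPB41L1, which encodes the cytoskeletal protein 4.1N, fell by 1.38 ± 0.12 SE, and NTRK2, the receptor gene for BDNF, by 0.96 ± 0.13 SE. NETO2, whose protein binds KCC2 in rodent neurons, rose by 0.31 ± 0.06 SE and CKB, brain creatine kinase, by 0.34 ± 0.08 SE. Of the 16 tested genes of this list 6 rose in GZ, 3 fell and 7 did not pass, so 9 were called, where 45.4% were called over all genes tested. The number that rose was 3 without both libraries numbered 1, with NETO2 and CKB among those lost (limma adjusted p = 0.068 and 0.0515).

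Of 14 tested genes for clustering and trafficking of GABA-A receptors, 6 fell in GZ, 1 rose and 7 did not pass. The 7 called are near the 45.4% called over all genes tested. By direction, 20.9% of all genes tested were called lower in GZ and 24.5% higher. GPHN, which encodes the scaffold gephyrin, was at 5.03, 4.81 and 4.95 in GZ and at 5.49, 5.89 and 5.57 in CP, a fall of 0.72 ± 0.12 SE (limma adjusted p = 0.0024). NSF, which drives membrane fusion, fell by 0.77 ± 0.10 SE, the motor gene KIF5A by 0.70 ± 0.08 SE and the adhesion gene MDGA1 by 0.83 ± 0.23 SE. MDGA1 was not called without GZ library 1, CP library 2 or CP library 3 (limma adjusted p = 0.062, 0.074 and 0.055), nor without both libraries numbered 1 (0.086). GABARAP, which binds gamma subunits and works in autophagy, rose by 0.37 ± 0.08 SE, and this call, the one rise of the list, was lost without both libraries numbered 1 (limma adjusted p = 0.072).

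Metabotropic GABA-B receptors showed an unequal pair. GABBR1 was at 5.92 ± 0.09 in GZ and 5.99 ± 0.05 in CP (SD, n = 3 each) and did not pass (limma adjusted p = 0.47). GABBR2, the subunit that couples to G proteins, was at 3.64 ± 0.40 in GZ and 5.67 ± 0.20 in CP, a fall of 2.03 ± 0.20 SE (limma adjusted p = 2.52e-04). KCTD16, an auxiliary subunit gene, fell by 1.11 ± 0.32 SE, and this call was lost without GZ library 2, GZ library 3, CP library 2 or CP library 3 (limma adjusted p = 0.065, 0.056, 0.075 and 0.072). KCTD8, the fourth tested gene, gave 0.58 ± 0.40 SE and did not pass, but rose in GZ without GZ library 3 (1.09, limma adjusted p = 0.0032).

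Of 7 tested genes for making, packing and taking up GABA, 4 rose in GZ and 2 fell, beside 24.5% called higher and 20.9% called lower over all genes tested. GAD1 and GAD2, which encode the GABA-synthesizing enzymes, rose by 1.16 ± 0.10 and 2.00 ± 0.21 SE. GAD1 was at 8.12, 8.38 and 8.02 in GZ and at 7.11, 6.99 and 6.94 in CP, with no overlap. SLC32A1, the vesicular GABA transporter gene, rose by 1.39 ± 0.13 SE. SLC6A11, an uptake transporter typical of astrocytes, fell by 0.88 ± 0.12 SE. ALDH5A1, which acts in GABA breakdown, fell by 0.52 ± 0.12 SE and was the other gene that fell. The ALDH5A1 call was lost without both libraries numbered 1 (limma adjusted p = 0.068).

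**Figure D5:**
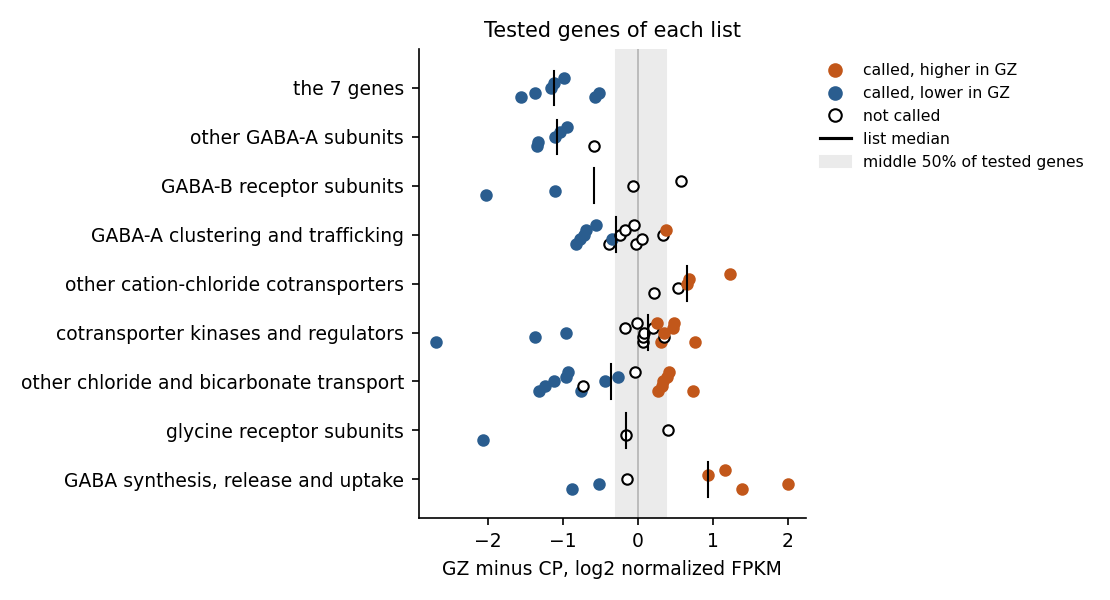
Each point is a tested gene, placed by its difference GZ minus CP (log2 normalized FPKM), in rows for the 7 genes and 8 lists of related genes. Bars are list medians and the grey band holds the middle 50% of all genes tested (-0.30 to 0.38). The tested GABA-A subunits, SLC12A2 and SLC12A5 lie to the left of the band. To its right lie 4 of 5 other SLC12 family genes (the row of other cation-chloride cotransporters) and 4 of 7 genes of GABA synthesis, release and uptake.

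Some markers of cell types differed between the tissues, and their part in the results was not tested. Over all genes tested 24.5% were called higher in GZ and 20.9% lower, so some calls in a list are common. Of 7 general neuronal markers 4 fell in GZ and 1 rose, with summed levels of 1776 to 2010 FPKM in GZ and 2005 to 2159 FPKM in CP. Of 7 excitatory neuron markers 4 fell and 1 rose (165 to 367 FPKM in GZ, 613 to 812 FPKM in CP). Of 7 interneuron markers 4 rose and 1 fell (523 to 763 FPKM in GZ, 264 to 290 FPKM in CP). GAD1 and GAD2 are 2 of these 4 and are also counted in the GABA synthesis list, and GAD1 had the highest level of the 7 markers. All 6 cycling cell markers rose (138 to 269 FPKM in GZ, 39.6 to 75.1 FPKM in CP). All 6 endothelial and mural markers fell (22.5 to 49.4 FPKM in GZ, 96.7 to 137 FPKM in CP). Radial glia markers split into 3 that rose and 1 that fell of 7 (508 to 604 FPKM in GZ, 496 to 653 FPKM in CP).

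The counts of the remaining marker lists stand beside the same 24.5% called higher and 20.9% called lower over all genes tested. Of 5 oligodendrocyte lineage markers 2 rose and 1 fell (127 to 157 FPKM in GZ, 107 to 134 FPKM in CP). Of 4 tested astrocyte markers 1 fell (131 to 150 FPKM in GZ, 183 to 266 FPKM in CP), with ALDH1L1 under the threshold. Erythroid markers fell in 2 of 3 (297 to 488 FPKM in GZ, 539 to 595 FPKM in CP). None of 3 microglia markers passed (39.7 to 63.9 FPKM in GZ, 51.6 to 75.8 FPKM in CP), and none of 5 meningeal and fibroblast markers (79.6 to 114 FPKM in GZ, 70.0 to 89.4 FPKM in CP). For choroid plexus and ependyma 3 markers were measured (6.36 to 11.97 FPKM in GZ, 4.95 to 16.5 FPKM in CP). CLIC6 and FOLR1 were under the threshold, and FOXJ1, the tested one, did not pass.

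For each of the 7 genes the nearest profiles were sought among 10954 other tested genes with a symbol, as the Euclidean distance between log2 profiles over the 6 libraries, each centred on its own mean. The 6 points fall into 2 tissues, so closeness mostly reflects a like difference between them. SLC12A2 was nearest to ETFRF1 (distance 0.05, against a median of 0.92 over all candidates) and EEF2 (0.10). SLC12A5 was nearest to EXOC3L1 (0.17, against a median of 1.44) and MAST4 (0.18). GABRA2 was nearest to HOOK1 (0.12) and the adhesion gene CADM2 (0.17), and GABRA3 to RBM24 (0.15) and EML1 (0.19). GABRA5 was nearest to the protocadherin gene PCDH10 (0.17) and NECTIN3 (0.23), and GABRB1 to C6H5orf63 (0.15) and PTPN6 (0.16). GABRA4 had the most distant neighbours, SNAI2 (0.34) and TRPM3 (0.36).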

How the data were processed

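The authors deposited FPKM after cqn normalization on a log2 scale, per the labels. The submitters' processing notes name STAR and SAMtools among the tools and rheMac8 and Mmul_8.0.1 among the builds, without roles or versions. The read counter and the gene models used were not given in the sources used here. Libraries were made with a TruSeq kit from total RNA, per the labels' protocols, and depth per library is unknown. Groups and numbers came from sample titles.

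Symbols for Ensembl identifiers came from a table of gene names (65.8% matched). The deposited log2 values were tested without a pseudocount in limma 3.58.1 (R 4.3.3), with lmFit, eBayes with trend and Benjamini-Hochberg adjustment, for the 13460 genes whose mean over the 6 libraries was at least 0. The fit was checked on simulated data. Shares and cotransporter differences were computed per library in Python 3.11.15 and compared with exact permutation tests. Hi-C, DNase and CTCF lists were not used here, since no annotation of their build was used to place genes.

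The genes and lists were chosen with earlier results of these data known. Named genes are the 7, up to 4 called genes with the largest difference in each list, and the 2 nearest profiles of each of the 7; other list genes that are named (among them GABRB2, GABRG3, GABRD, SLC12A7, SLC12A9, WNK1, WNK2, WNK3, WNK4, OXSR1, NETO2, CKB, GABARAP, GABBR1, KCTD8, SLC6A11, ALDH5A1, SLC4A4, GLRA3 and GLRB) were chosen after their values were seen. Some genes of the lists, counted in them, are not reported singly here. Alternatives were a replicate block, other filters, a pseudocount of 1, 2 other scalings, 2 other variance models and each library left out. Leaving out both libraries numbered 1 was chosen after seeing the data.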

Additional observations from a re-analysis of the deposited data

How the results depend on the processing

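Each of the 7 genes was lower in GZ under every alternative in which it was tested. Of 104 such results 103 passed the threshold, and the exception was SLC12A2 without both libraries numbered 1 (-0.57, limma adjusted p = 0.051). GABRA4 was not tested with the filter at a mean of 1. With each library left out in turn the log2 differences ran from -1.33 to -0.98 for GABRA2, -1.70 to -1.44 for GABRA3, -1.57 to -1.28 for GABRA4, -1.29 to -0.85 for GABRA5, -0.71 to -0.47 for GABRB1, -0.58 to -0.48 for SLC12A2 and -1.10 to -0.85 for SLC12A5. The difference between tissues in SLC12A5 minus SLC12A2 ran from -0.55 to -0.37, and was -0.26 with a pseudocount of 1. A pseudocount of 1 also moved the GZ minus CP share of GABRA4 to 1.21 and of GABRA6 to 1.95 percentage points, against -0.28 and 0.21.

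With 1 library left out, 2261 to 3146 genes rose in GZ and 2243 to 2855 fell, against 3297 and 2816. The other chloride and bicarbonate transport list had 1 to 5 genes higher in GZ, and the GABA-B list 0 to 1 higher and 1 to 2 lower. Without both libraries numbered 1, 1647 genes rose and 1716 fell. In that setting the counts that rose were 0 for clustering and trafficking, 1 for other cotransporters, 3 for kinases and regulators and 1 for other chloride and bicarbonate transport, and the counts that fell were 3 for other GABA-A subunits and 1 for GABA synthesis, release and uptake. With the filter at a mean of 1, 3 other GABA-A subunits were called lower. No cause was tested.

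Same-numbered GZ and CP libraries had deviations that correlated at -0.38, 0.30 and 0.35 over tested genes for numbers 1, 2 and 3. The numbers were not taken as pairs in the main test because the labels do not say that a number marks an animal. GZ libraries 2 and 3 were each closest to the CP library of their own number, and GZ library 1 to CP library 2. With the replicate block 3300 genes rose and 2817 fell, all 7 genes still fell, OXSR1 rose (limma adjusted p = 0.038), and the cotransporter difference was -0.46 (exact sign-flip p = 0.25, the smallest possible). Unknown depth limits what can be said of GABRA4 and of subunits with levels below 0.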

Other observations

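Beyond the GABA-A pathway, genes of sodium-potassium pumps and glycine receptors that share the chloride gradient or its energy supply were also measured. In the list of other chloride and bicarbonate transport 6 of 16 tested genes rose in GZ and 8 fell, beside 24.5% called higher and 20.9% called lower over all genes tested. The number that rose was 1 without GZ library 1, GZ library 2 or CP library 3, 2 without CP library 1, 3 without CP library 2 and 1 without both libraries numbered 1. ATP1B1, which encodes a beta subunit of the sodium-potassium pump, fell by 1.12 ± 0.11 SE in GZ (limma adjusted p = 2.44e-04). SLC4A10, a bicarbonate transporter gene of neurons, was at 3.35, 2.58 and 3.53 in GZ libraries 1, 2 and 3 and at 4.42, 4.61 and 4.40 in the CP libraries, a fall of 1.32 ± 0.23 SE. The genes that rose did so by 0.27 to 0.74, with SLC4A4 at the upper end, which was not called without GZ library 2 or CP library 2 (limma adjusted p = 0.062 and 0.051). GLRA2, the fetal glycine receptor alpha subunit gene, fell by 2.07 ± 0.24 SE (3.10 ± 0.54 in GZ, 5.17 ± 0.10 in CP, SD, n = 3 each), while GLRB gave -0.16 ± 0.13 SE and GLRA3 0.40 ± 0.25 SE, and neither passed.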
